A study of Rattus norvegicus with 8 samples.

Results

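Oxidative phosphorylation runs on 5 multi-subunit complexes of the mitochondrial inner membrane. Complexes I to IV pass electrons from NADH and succinate to oxygen, and complex V, the ATP synthase, uses the proton gradient so formed to make ATP. Most subunits are encoded in the nucleus, and complex IV (cytochrome c oxidase) has subunits with one isoform enriched in heart and skeletal muscle and another present in most tissues. The genes described here were chosen by name, as every gene spot whose name in the array files began with Nduf, Sdha to Sdhd, Uqcr, Cox4 to Cox8 or Atp5. The rule gave 90 of 26276 gene names, on 113 of 30367 gene probes and 239 of 42877 gene spots. Complex I had 43 genes, complex II 5, complex III 7, complex IV 17 and complex V 18. By name, 14 of the 90 genes were not counted as structural subunits of their complex: assembly factors, gene copies and other genes that share the name start. Ndufa4 was among the last group. Complexes were assigned by name alone, so Ndufa4 stays in the values of complex I. A filter on dim signals left 104 probes of 86 genes, and no value was drawn from the other 9 probes. Gene names are those of the array design, in which most complex V genes carry older symbols.

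All animals were castrated adult male Wistar rats aged 120 ± 12 days by the labels. The treated rats were injected once under the skin with testosterone propionate, an androgen ester, at 4 mg/kg in oil from corn, and their RNA was taken 8 h or 24 h later, with 4 arrays of a pair of dyes at each time. Every array set treated RNA against RNA labelled as control from castrated rats without the hormone, and the sources used here do not say whether those controls received oil, how many animals stood behind an array or whether the times shared control animals. The labels call the material castrated rat cells and do not name the muscle. On the arrays, 15 of the 17 skeletal muscle fibre genes looked up had a kept probe, and 14 had one above the 90th percentile of signal, among them Tnni2, the inhibitory subunit of fast troponin. Of 8 slow fibre genes 4 had a kept probe, all below the 50th percentile.

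At 8 h replicates 1 and 2 carried the treated RNA in the dye Cy3 and replicates 3 and 4 in Cy5, and at 24 h the order was the other way round. All values below are log2 ratios of treated over control, so 0 means no difference, 1 a doubling and a negative value a lower level after testosterone. The arrays of 8 h lay on one slide and those of 24 h on another, and the effects of slide and time cannot be told apart. The array of 8 h replicate 1 stood apart with an SD of its log2 ratios of 0.437, against 0.180 to 0.303 on the others, and that of 8 h replicate 2 correlated with replicate 3 at only -0.121 across probes. The members were bright: their median lay at a signal percentile of 88.5 among kept probes, and 0 of them had a saturated spot.

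The 60-base probes decide which stretch of an RNA is read, and those of the genes that the results turn on are shown here, with positions on rn4. The first Uqcr11 probe ends on the stop codon (capitals) at chr7:10819576-10819635 on the plus strand. The Uqcr11 probe that changed lies 1301 bases downstream on the genome, and its last 30 bases are at chr7:10820967-10820996. Whether that stretch belongs to the Uqcr11 transcript was not looked up. The Cox4i1 stretch, at chr19:51030171-51030200 on the plus strand, holds the polyadenylation signal AATAAA in capitals. The Cox6a1 stretch is at chr12:42533055-42533084 on the plus strand, and the Atp5hl1 probe, which has a reading frame free of stop codons throughout, is at chr16:51796111-51796170 on the minus strand.
Uqcr11, stop-codon probe: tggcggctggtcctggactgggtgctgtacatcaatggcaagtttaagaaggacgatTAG
Uqcr11, downstream probe: cctttgagctcccaacacttgcatgtcggg
Cox4i1: gtccatgttAATAAAtgaccagtttacgtg
Cox6a1: tctttcctttatcagatggtgaccattact
Atp5hl1: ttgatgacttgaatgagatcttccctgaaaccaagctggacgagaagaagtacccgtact
AATAAA was present in 20 of the 113 member probes (17.7%) and in 8.39% of all 30367 gene probes.

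At 24 h 4 of the 104 kept probes passed the test, and they did not share a direction. Cox6a1, the complex IV subunit VIa isoform found in most tissues, was higher after testosterone. Cox4i1, the main isoform of complex IV subunit IV, the downstream probe of Uqcr11, the smallest complex III subunit, and Atp5hl1, a copy of the gene for ATP synthase subunit d, were lower. The 1 higher call was 0.962% of the members against 4.15% of all 12067 probes tested, and the 3 lower calls were 2.88% against 2.76%. The share of lower calls was close to that of the whole array. The count was 0 with the scanner's processed signals (4.77% of all probes called) and 0 with median centring (3.62%). A fit of the 4 arrays of 24 h alone called 11 (11% of members, 14.1% of all probes). Calls are by limma's moderated test with Benjamini-Hochberg adjustment over all probes tested and a threshold of 0.05.

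Cox6a1 stood at 0.70, 0.52, 0.76 and 0.53 on the 4 arrays of 24 h. On the 3 arrays of 8 h with a value it stood at 0.13, 0.04 and -0.15. The times did not overlap, and both dye orientations gave the rise at 24 h. The fitted log2 ratio at 24 h was 0.63 ± 0.08 (SE, n = 4), a 1.54-fold rise with limma's adjusted p = 0.00221, and 24 h exceeded 8 h by 0.64 with adjusted p = 0.0400. With each of the 8 arrays left out in turn the 24 h call was kept in 8 of 8 fits, but that of the difference in 3, with limma's adjusted p up to 0.191. With the processed signals the 24 h value was 0.56 and limma's adjusted p 0.053.

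Cox4i1 stood at -0.82, -0.34, -0.45 and -0.61 at 24 h. At 8 h it stood at -0.21, 0.09, -0.08 and -0.09, above every array of 24 h. The fitted ratio at 24 h was -0.55 ± 0.09 (SE, n = 4), 1.47-fold lower with limma's adjusted p = 0.00632, and the difference between times missed the threshold at -0.48 with adjusted p = 0.0945. Without 24 h replicate 1 it was -0.45 with limma's adjusted p = 0.0557, and with the processed signals -0.34 with 0.128. Cox4nb (now Emc8), a part of a membrane protein insertion complex whose probe lies 15843 bases away on the opposite strand, is in the rule only by its name. It stood at 0.05 with limma's adjusted p = 0.77, and its signal was well above background on 1 of 4 control arrays at 24 h.

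The downstream probe of Uqcr11 stood at -0.55, -0.45, -0.13 and -0.27 at 24 h and at 0.18, 0.26, -0.06 and 0.04 at 8 h. All arrays of 24 h lay below all arrays of 8 h. The fit gave -0.35 ± 0.06 (SE, n = 4) at 24 h, with limma's adjusted p = 0.0119, and a difference between times of -0.46 with adjusted p = 0.0456. The stop-codon probe of the same gene stood at 0.41, 0.10, -0.17 and -0.44, with a fitted value of -0.02 and limma's adjusted p = 0.945. The third Uqcr11 probe, which shares 30 bases with the stop-codon probe, stood at -0.07 with adjusted p = 0.825. The fall was measured on the downstream probe, and the probes over the coding end had 95% intervals of -0.27 to 0.23 and -0.37 to 0.23. At 8 h these overlapping coding-end probes parted, with the stop-codon probe at 0.30 and the third probe at -0.37. The difference between the probes was not tested. The call of the difference was kept in 1 of 8 fits with an array left out (limma's adjusted p up to 0.169). The 24 h call was lost with the processed signals (-0.25, limma's adjusted p = 0.254) and without 24 h replicate 1, 2 or 4, and the value was 0.04 with median centring.

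Atp5hl1 stood at -0.65, -0.52, -0.04 and -0.36 at 24 h and at 0.79, 0.20, 0.14 and -0.01 at 8 h. The groups did not overlap, and the fit gave -0.39 ± 0.10 (SE, n = 4) at 24 h with limma's adjusted p = 0.0419. The call was lost without 6 of the 8 arrays left out in turn, with limma's adjusted p values up to 0.209, and with the processed signals, and with median centring the value was 0.0045. The Atp5h probe, for subunit d of the stalk, stood at -0.10 with limma's adjusted p = 0.66. Whether the Atp5hl1 probe also reads Atp5h RNA was not looked up. Just outside the threshold was Atp5i, subunit e, which helps the ATP synthase form dimers. It was measured on 2 arrays at each time, at -0.56 and -0.49 at 24 h against 0.31 and 0.02 at 8 h, with a fitted -0.53 ± 0.11 (SE) and limma's adjusted p = 0.0515.

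**Figure D1:**
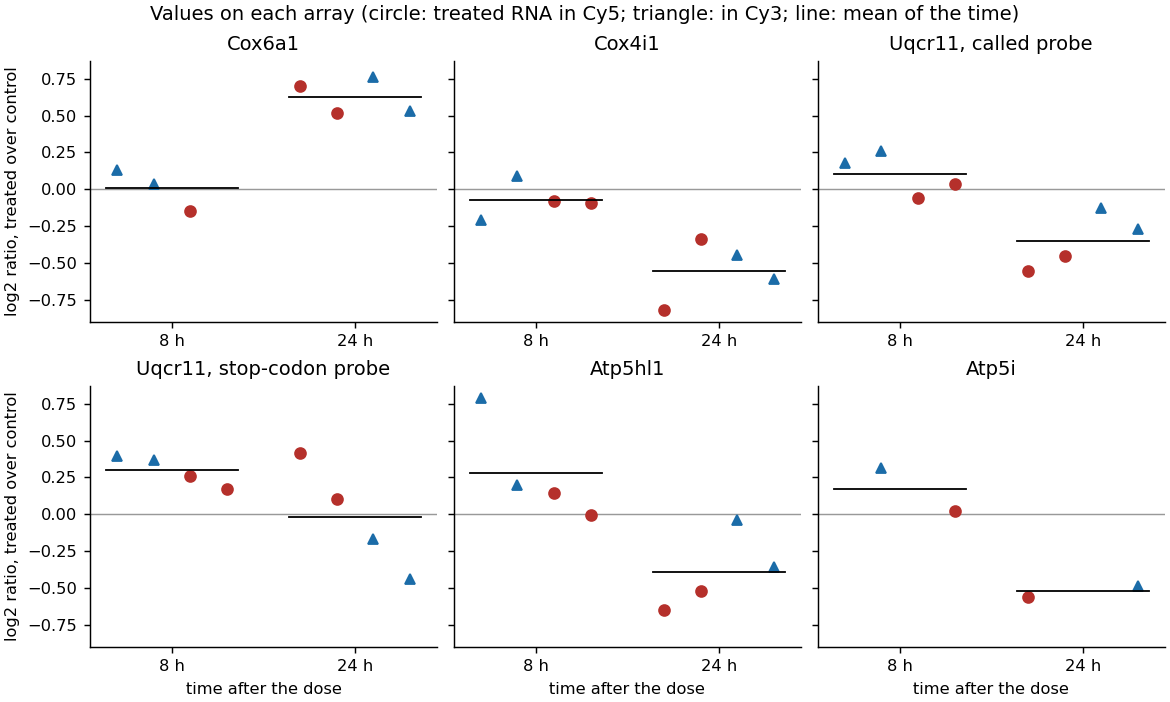
Log2 ratio of treated over control on each array for 6 probes, with 8 h on the left and 24 h on the right of each panel, circles for arrays with the treated RNA in Cy5, triangles for those with it in Cy3 and a line at the mean of the time. The 4 values of Cox6a1 at 24 h lie between 0.52 and 0.76, those of Cox4i1 between -0.82 and -0.34, and the stop-codon probe of Uqcr11 spans 0 at 24 h while its downstream probe does not.

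Isoforms of complex IV subunits differed on every array of 24 h, in pairs chosen after their values were seen. Cox6a1 and Cox4i1 were already called above, so the differences of their pairs are no separate support. A test of a pair over 4 arrays could not have passed, so it cannot decide whether the isoforms differ. Cox6a2 is the heart and skeletal muscle isoform of subunit VIa, Cox8a and Cox8b are the widely expressed and the muscle-type isoform of subunit VIII, and Cox4i2 is a subunit IV isoform best known from lung. Cox6a1 exceeded Cox6a2 by 0.74, 0.77, 0.81 and 0.71 on the 4 arrays of 24 h, a mean difference of 0.76 ± 0.04 (SD, n = 4). Cox8a exceeded Cox8b by 0.65, 0.65, 0.67 and 0.71, a mean of 0.67 ± 0.03 (SD, n = 4). In both pairs the widely expressed isoform was higher relative to the muscle isoform on 4 of 4 arrays, and the differences spread far less than the isoforms themselves. For subunit IV the order was the opposite, and Cox4i1 minus Cox4i2 was -0.74, -0.55, -0.64 and -0.44. Cox4i2 itself averaged 0.04 at 24 h.

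At 8 h the same differences were 0.04 ± 0.37 (SD, n = 3) for subunit VIa, 0.02 ± 0.61 (SD, n = 4) for subunit VIII and 0.06 ± 0.10 (SD, n = 4) for subunit IV, none beyond its spread. The exact two-sided sign-flip permutation test over arrays gave p = 0.125 for each pair at 24 h, the smallest that 4 arrays allow, and 0.25 after adjustment over the 6 comparisons made. On its own Cox8a stood at 0.11, 0.07, 0.70 and 0.15 at 24 h (limma's adjusted p = 0.132) and Cox8b at -0.55, -0.58, 0.02 and -0.56 (limma's adjusted p = 0.129). Replicate 3 was the highest array for both, so the isoforms shifted together there and kept their distance. Cox6a2 stood at -0.04, -0.25, -0.05 and -0.18 at 24 h, with a fitted -0.13 and limma's adjusted p = 0.526. Of subunit VIIa, the 2 probes of Cox7a2, the widely expressed isoform, stood at -0.20 and -0.17 at 24 h (limma's adjusted p = 0.0961 and 0.521).

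**Figure D2:**
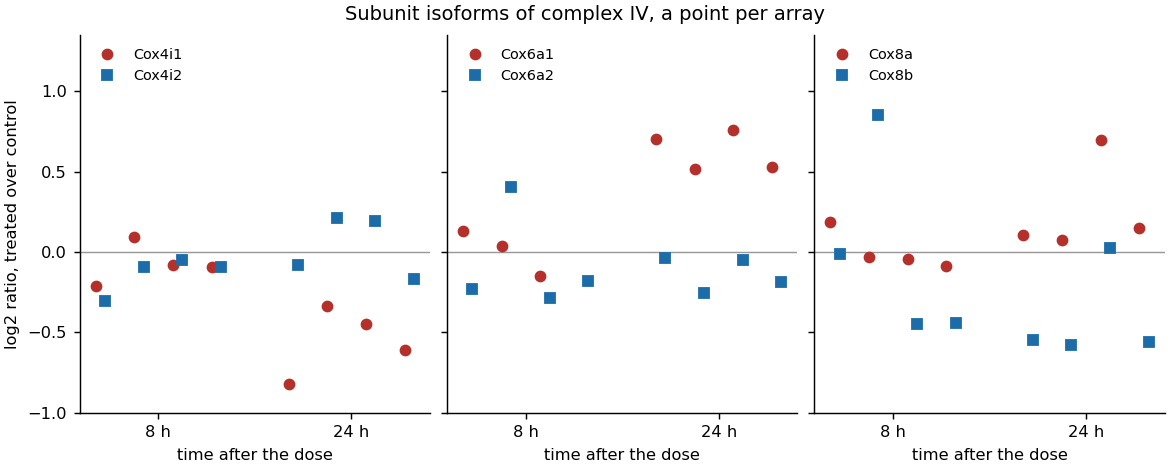
Log2 ratio of treated over control for 3 isoform pairs of complex IV, with 1 point per array and the arrays of 8 h left of those of 24 h. At 24 h the Cox6a1 points lie 0.71 to 0.81 above those of Cox6a2 on the same arrays and the Cox8a points 0.65 to 0.71 above those of Cox8b, while Cox4i1 lies below Cox4i2.

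Genes of other cell types changed on the same arrays. Of 12 kept macrophage probes, 5 rose at 24 h and none fell, with C1qa, a complement subunit made by macrophages, at 0.69 (limma's adjusted p = 0.00104). The median of the macrophage list ran from 0.16 to 0.51 over the 4 arrays of 24 h. Of 14 fibroblast and matrix probes, 6 rose and none fell, with the collagen gene Col1a1 at 1.54 and 0.92 on its 2 probes (limma's adjusted p = 0.00207 for both) and array medians from 0.18 to 0.35. Of 16 skeletal muscle fibre probes, 1 rose (Myh1, a fast myosin) and 2 fell (Acta1 and Actn3, both of the fibre's contractile machinery), with array medians from -0.50 to -0.21. Of the endothelial and white adipocyte probes 1 each rose, Kdr of 7 and Fabp4 of 4. The endothelial list had a median of 0.01 at 24 h, with 4 probes above 0 and 3 below, the lowest Cdh5 at -0.27. All 4 white adipocyte probes were higher at an unadjusted p under 0.05, with array medians from 0.15 to 0.63. Of 5 slow fibre, 3 brown adipocyte, 6 erythrocyte, 8 smooth muscle and 8 Schwann cell probes 0 passed limma's test (2, 1, 1, 0 and 3 at an unadjusted p under 0.05). The erythrocyte median ran from -2.02 on 8 h replicate 3 to 1.73 on 24 h replicate 3. At 8 h the macrophage median ran from -0.64 to -0.10. Their part in the isoform differences was not tested. In bulk RNA fewer cells of a type and less RNA per cell cannot be told apart.

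**Figure D3:**
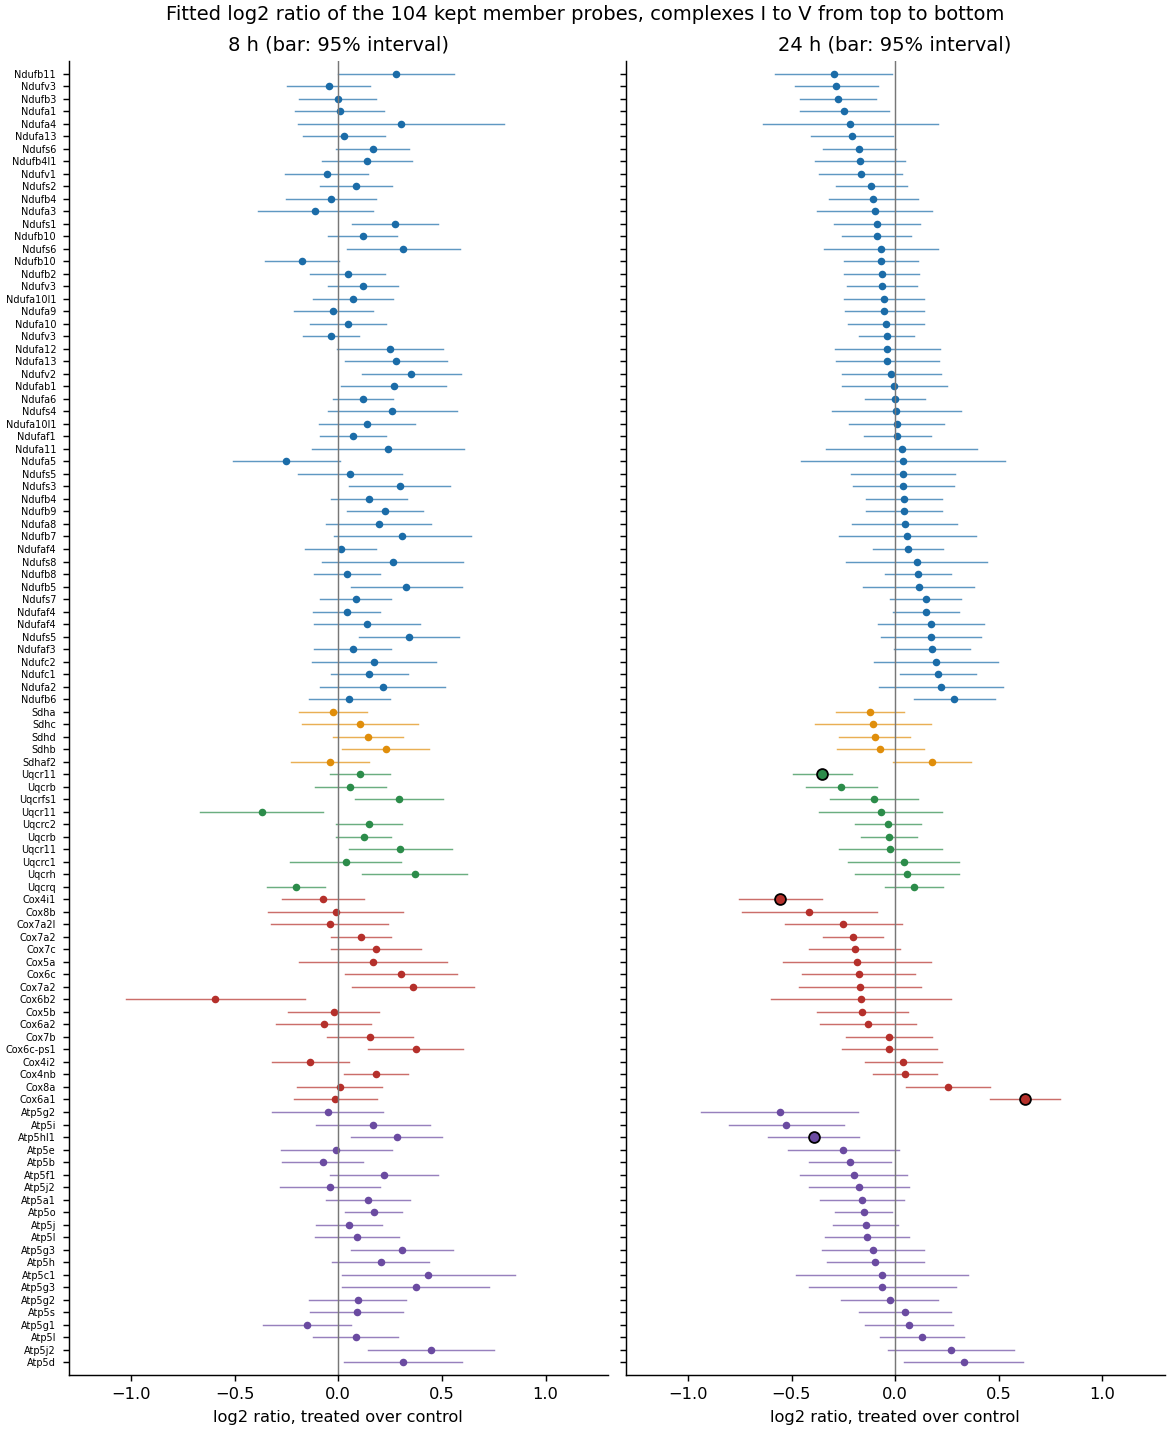
Fitted log2 ratio of treated over control for the 104 kept probes at 8 h (left) and 24 h (right), coloured by complex and ordered within a complex by the 24 h value, with bars for 95% intervals and large outlined points for the 4 that passed the test. At 8 h 78 of 104 points lie right of 0 and at 24 h 37 do.

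At 8 h most members leaned up, and none passed the test. Their median was 0.12, against -0.01 over all probes, and 78 of 104 lay above 0 (75%, against 47.2% of all probes). The 52 brighter members had a median of 0.06, with 33 above 0, and the 52 dimmer ones 0.15, with 45 above 0. No member was called higher or lower, beside 0.0166% of all probes called higher and 0.00829% called lower by limma. At an unadjusted p under 0.05, 27 members (26.0%) and 16.9% of all probes passed. On all 4 arrays 22 members (21.2%) lay above 0, against 9.56% of all probes, and 4 (3.85%) lay below, against 11.8%.

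The lean at 8 h came with the dye orientation. Replicates 1 and 2, with Cy3 on the treated side, had member medians of 0.24 and 0.15, and replicates 3 and 4, with Cy5 there, had 0.02 and -0.0016. With any 1 array left out the fitted median stayed between 0.09 and 0.12. Without replicate 2 the members called at 8 h numbered 20 (18 higher, 2 lower), 19.8% of members against 10.7% of all probes. Among the 18 were Ndufs1 and Ndufv2, iron-sulfur subunits of complex I, at 0.41 and 0.50, and Uqcrfs1, the Rieske protein of complex III, at 0.41. With all arrays they stood at 0.28, 0.35 and 0.29 and were not called. Leaving out replicate 2 leaves replicate 1, the array that stood apart, as the only Cy3 array of 8 h.

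At 24 h the members leaned slightly down. Their median was -0.06 against 0.00 over all probes, and 67 of 104 lay below 0. Above 0 lay 35.6% of members, against 50.7% of all probes. The lean lay in the brighter members. The 52 brighter members had a median of -0.15, with 41 below 0, and the 52 dimmer ones 0.00054, with 26 below 0. The part of signal level in this was not tested. Replicates 1 and 2, labelled with Cy5 on the treated side, had member medians of -0.08 and -0.15, and replicates 3 and 4 had 0.05 and -0.05. With median centring, under which 63.7% of all probes were called for dye, the fitted median was 0.27 and that of all probes 0.15. On all 4 arrays 7 members (6.73%) lay above 0, against 15.4% of all probes, and 14 (13.5%) lay below, against 13.5%. At an unadjusted p under 0.05, 5 members were higher and 15 lower, together 19.2% against 21.9% of all probes.

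Between the times, 80 of 104 members were lower at 24 h than at 8 h. The difference was above 0 for 23.1% of members, against 56.2% of all probes. The median difference was -0.18, against 0.03 over all probes, and its sign was the same in each orientation, at -0.14 from the Cy5 arrays alone and -0.21 from the Cy3 arrays alone. The test called Cox6a1 higher, 0.962% of the members against 0.729% of all probes, and the downstream Uqcr11 probe lower, 0.962% against 0.53%. All arrays of 24 h lay below all of 8 h for 8 members (7.69%, against 3.99% of all probes) and above for 0 (against 5.13%), where only probes with a value on all 8 arrays count, 98 of the 104 members. Cox6a1, without a value on 8 h replicate 4, lay above on every array measured. Those 8 were Ndufb11 and Ndufs6 of complex I, Uqcrfs1 and the downstream Uqcr11 probe of complex III, Cox4i1, Cox7a2, Atp5hl1 and a Uqcrb probe. The Uqcrb probe was dim and not well above background on any control array. It passed the filter only through the treated RNA of 8 h, well above background on 3 arrays there and on 1 at 24 h. Kept through the group where it must be high, it adds no support to the count.

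The members' ratios differed by dye orientation. The mean log2 ratio with the treated RNA in Cy5 minus that with it in Cy3 had a median of -0.17 over members. Over all probes the median was 0.03. Of 104 members 83 lay below 0, and 20.2% lay above 0 against 56.3% of all probes. With median centring the members' median was 1.20 and that of all probes 0.61. None passed limma's test for dye, beside 0.0912% of all probes higher and 0.00829% lower. At an unadjusted p under 0.05, 30 members were lower and 2 higher, together 30.8% against 12.9% of all probes. For 14 members (13.5%, against 1.8% of all probes) all 4 Cy5 arrays lay below all 4 Cy3 arrays, and for 1 (0.962%, against 4.31%), Cox6b2, they lay above. Among the 14 were Sdhd, a membrane anchor of complex II, Atp5a1, the alpha subunit of the ATP synthase, Atp5o, its stalk subunit, and Ndufa6 of complex I.

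Atp5a1 shows how far the orientations parted. With the treated RNA in Cy3 it stood at 0.58 and 0.46 at 8 h and at 0.05 and 0.36 at 24 h. With it in Cy5 it stood at -0.48 and 0.01 at 8 h and at -0.45 and -0.60 at 24 h. Its dye difference was -0.74 (limma's adjusted p = 0.0747), and its values over both orientations were 0.14 at 8 h and -0.16 at 24 h (limma's adjusted p = 0.425 and 0.350). Cox6a1 and Cox4i1 differed little between dyes, by -0.11 and -0.04 (limma's adjusted p = 0.741 and 0.929).

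**Figure D4:**
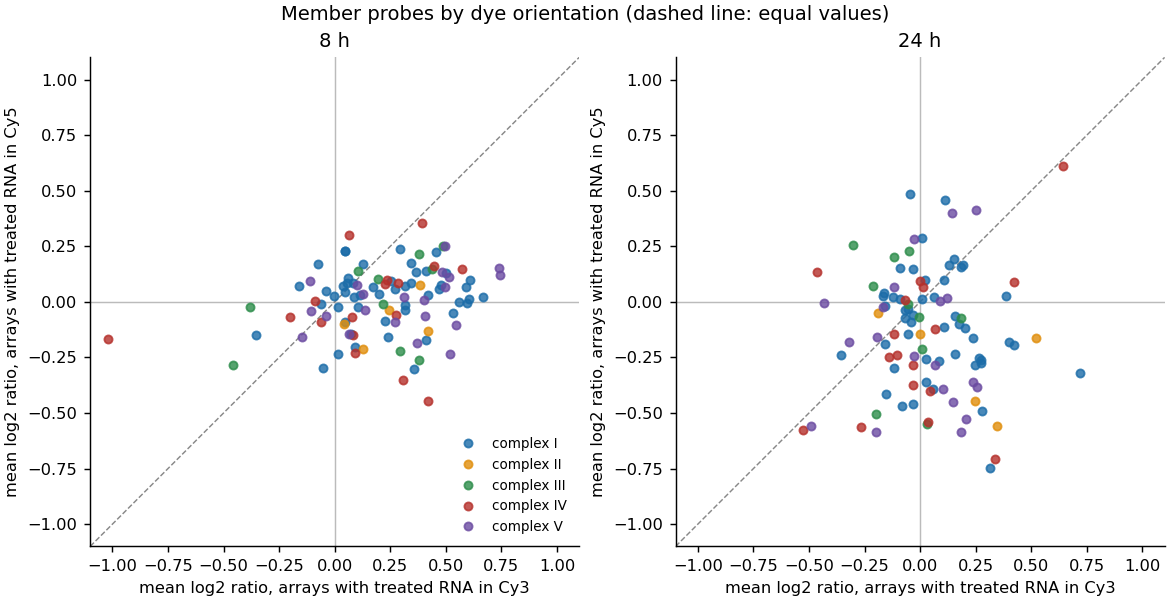
Mean log2 ratio of each member probe on the arrays with the treated RNA in Cy5 (vertical axis) against that on the arrays with it in Cy3 (horizontal axis), at 8 h and 24 h, coloured by complex, with a dashed line of equal values. Most points lie below the dashed line at both times, and the single point high on both axes at 24 h is Cox6a1.

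The medians of the complexes were compared without a test. At 8 h the fitted medians were 0.12 for complex I (51 probes, 42 above 0), 0.10 for complex II (5 probes), 0.11 for complex III (10 probes), 0.01 for complex IV (17 probes, 9 above 0) and 0.14 for complex V (21 probes, 16 above 0). At 24 h they were -0.00, -0.10, -0.03, -0.17 and -0.13 in the same order. Array medians of 8 h averaged 0.02, -0.10, 0.04, -0.03 and 0.01 with Cy5 and 0.19, 0.30, 0.19, 0.13 and 0.34 with Cy3. Those of 24 h averaged -0.09, -0.18, -0.03, -0.14 and -0.25 with Cy5 and 0.06, 0.25, -0.07, -0.07 and -0.0022 with Cy3. Complexes I and II had opposite signs in the orientations at 24 h, and complexes II and IV at 8 h. The SD between arrays of 24 h was 0.10, 0.26, 0.04, 0.09 and 0.16. Complex IV had 13 of 17 probes below 0 at 24 h and complex V 16 of 21, while complex I was split, with 27 of 51. The array medians of complex V at 24 h were -0.18, -0.33, 0.05 and -0.05, so the SD between arrays, 0.16, was as large as its shift.

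Within complex I, which takes electrons from NADH, no probe passed at any time. Its highest at 24 h was Ndufb6, a membrane arm subunit, at 0.62, 0.30, 0.04 and 0.19 (fitted 0.28, limma's adjusted p = 0.0856). Its lowest was Ndufb11, also of the membrane arm, at -0.33, -0.14, -0.16 and -0.55 (fitted -0.30, adjusted p = 0.203). Of the core subunits, Ndufs1 stood at -0.09 and Ndufv1, which binds NADH, at -0.17 at 24 h (limma's adjusted p = 0.644 and 0.324).

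In complex II, the succinate dehydrogenase of the citric acid cycle, no probe passed. Sdha, the flavoprotein, differed by -0.0022 between dyes, while Sdhb, its iron-sulfur partner, differed by -0.23 and the membrane anchors Sdhc and Sdhd by -0.59 and -0.62 (limma's adjusted p = 0.525, 0.230 and 0.0742). At 24 h the 4 subunits stood at -0.12, -0.07, -0.11 and -0.10, with limma's adjusted p from 0.397 to 0.731. Sdhaf2, the factor that helps attach flavin to Sdha, stood at 0.18 (adjusted p = 0.257).

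Complex III passes electrons from ubiquinol to cytochrome c. Uqcrc1, a core protein, stood at 0.04 at 24 h and Uqcrfs1 at -0.10 (limma's adjusted p = 0.893 and 0.601). Uqcrq, a small subunit, was the highest at 24 h at 0.09 and leaned down at 8 h, at -0.37, -0.39, -0.05 and -0.00 (fitted -0.20, limma's adjusted p = 0.270). Uqcrh, the hinge protein, was the highest at 8 h, at 0.91, 0.07, 0.21 and 0.29 (fitted 0.37, adjusted p = 0.270), with replicate 1 far above the rest.

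In complex IV the lowest value at 8 h was that of Cox6b2, a subunit VIb isoform best known from testis, at -1.83, -0.21, -0.20 and -0.13 (fitted -0.59, limma's adjusted p = 0.270). Replicate 1 lay far below the others. Cox6c and its pseudogene Cox6c-ps1 have probes that share 40 of 46 bases in an ungapped overlap, shown here with the differing bases in capitals (chromosomes 7 and 19).
Cox6c: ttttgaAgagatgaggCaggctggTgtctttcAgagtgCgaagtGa
Cox6c-ps1: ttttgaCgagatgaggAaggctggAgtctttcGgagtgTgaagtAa
At 8 h Cox6c, measured on 2 arrays at each time, stood at 0.30 and Cox6c-ps1 at 0.37, the highest of complex IV, and at 24 h at -0.18 and -0.03, none past the threshold. The values of the pair are uncertain, since the probes are alike.

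In complex V the fitted values at 24 h were -0.16 for Atp5a1 and -0.22 for Atp5b, the catalytic beta subunit (limma's adjusted p = 0.350 and 0.179). That of Atp5a1 averages opposite signs, above 0 with the treated RNA in Cy3 and below 0 with it in Cy5. None of the 5 probes of the 3 genes for the c subunit of the rotating ring passed. At 24 h Atp5g1 stood at 0.07, the 2 Atp5g3 probes at -0.11 and -0.06, and the 2 Atp5g2 probes at -0.03 and -0.56, the latter measured on 2 arrays at -0.53 and -0.60 (limma's adjusted p = 0.0976). Atp5d, the delta subunit of the central stalk, was the highest at 0.50, 0.33, 0.46 and 0.04 (fitted 0.33, adjusted p = 0.163).

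**Figure D5:**
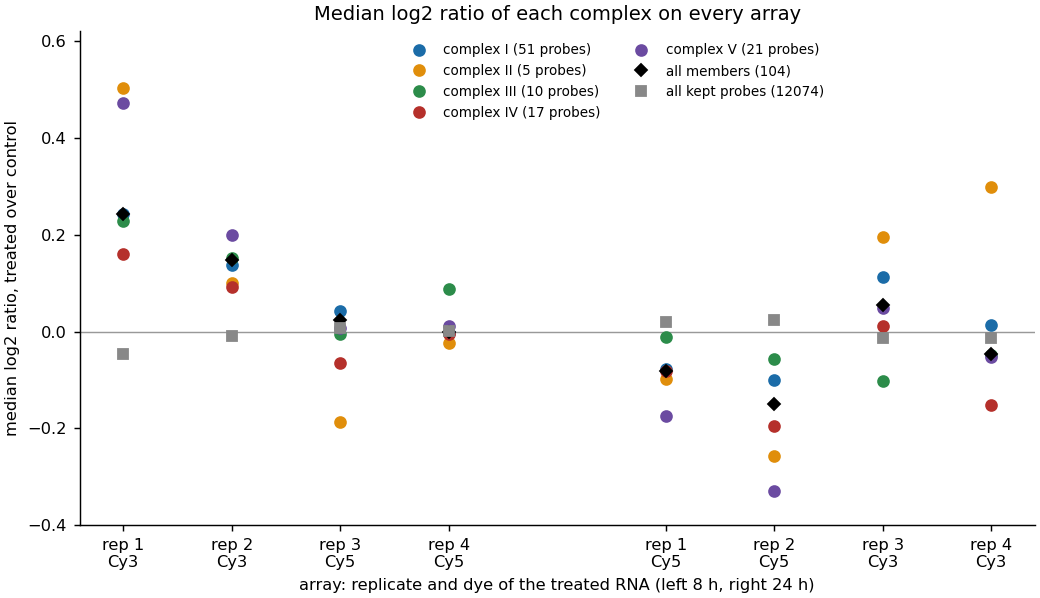
Median log2 ratio of treated over control over the kept probes of each complex on every array (circles), with all members (black diamonds) and all kept probes (grey squares), the arrays of 8 h on the left and of 24 h on the right, each with its replicate and the dye of the treated RNA. Member medians are 0.24 and 0.15 on the Cy3 arrays of 8 h, and the medians over all kept probes stay between -0.05 and 0.02.

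Probes of one gene did not always give one value. Of 15 genes with over 1 kept probe, 11 had probes of one sign at 24 h and 9 at 8 h. The widest gap at 24 h was that of Atp5g2 (0.53), followed by Atp5j2, subunit f of the ATP synthase, whose probes stood at 0.27 and -0.17. At 8 h the widest was that of Uqcr11 (0.67).

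The promoters of the genes were read for the motifs of 3 regulators of nuclear respiratory genes, in RefSeq sequences of 300 bases on GRCr8 that matched 77 of the 90 genes, on both strands. The NRF-1 motif, GCGCA and GCGC with any 1 base between them, was in 15 of 77 (19.5%), against 4.71% of all 27457 promoters. The ETS motif CCGGAAG, the core bound by GABP, was in 23 (29.9%, against 9.22%), and the ERR motif TCAAGGTCA in 2 (2.6%, against 0.412%). Probes of the 15 genes with the NRF-1 motif had a median of -0.05 at 24 h and those of the genes without it -0.07. The windows of 3 ATP synthase genes are shown with the match in capitals: Atp5i at chr14:1464774-1464803 on the plus strand, Atp5o at chr11:44657523-44657552 and Atp5g2 at chr7:135678255-135678284, both on the minus strand.
Atp5i: ttgcgctacgGCGCATGCGCtttcctggct
Atp5o: acgccgacgcGCGCATGCGCtctggcatca
Atp5g2: ggctctagtcGCGCATGCGCagagccttct
A match is a description of these letters and no measured binding.

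Other genes of the pathway were looked up in lists beside the members. Of 32 kept probes for assembly factors and mobile carriers, 1 rose and 1 fell at 24 h. Over all 12067 probes tested, 4.15% were called higher and 2.76% lower at that time. Atpaf2, an assembly factor of the ATP synthase, stood at 0.51 and Oxa1l, which inserts proteins into the inner membrane, at -0.41 (limma's adjusted p = 0.0042 and 0.0115). Of 18 probes for pyruvate dehydrogenase and the citric acid cycle, 1 fell, Idh2, the mitochondrial NADP-dependent isocitrate dehydrogenase, at -0.55 (adjusted p = 0.0142). Of 10 probes for coenzyme Q synthesis and 14 for regulators of mitochondrial biogenesis, 0 passed limma's test at 24 h. In each list 1 probe was lower at an unadjusted p under 0.05, a level reached in either direction by 21.9% of all probes. The 13 subunits encoded in mitochondrial DNA were not analysed here. The medians of these 4 lists at 24 h lay between -0.07 and 0.02.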

How the data were processed

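Two-colour Agilent arrays of rat RNA were analysed, 4 at 8 h and 4 at 24 h. The authors extracted the scanner intensities; the submitters' processing notes name Feature Extraction 9.5.3.1. The deposited files also hold log10 ratios of Cy5 over Cy3, which enter no result, and the design is annotated on rn4, per the file headers. The deposited value table holds log2 ratios of the processed signals, treated over control. Here, intensities were background-corrected (normexp, offset 50) and loess-normalized within arrays with limma 3.58.1 in R 4.3.3, outlier spots were left out, and spots of a probe were averaged. Probes were kept if well above background on 3 of 4 arrays in at least 1 of 4 RNA groups: 12074 of 30367, of which 12067 could be tested. One fit over the 8 arrays held a coefficient for each time and one for dye, and p-values were adjusted over all 12067 probes. On simulated 24 h changes over 12067 probes, the fit recovered 73% of changes of 0.5 and 93% of changes of 1. The simulated noise was independent between probes and arrays, and its dye differences were centred on 0. The members' dye differences had a median of -0.17, so this recovery cannot be taken as that of the members. The number of arrays limits the precision, and where nothing says that samples came from separate animals, p-values measure only the spread between arrays. The main fit did not pair the arrays of the times by replicate number, and whether the numbers pair them could not be told. Named members were those past the threshold, the highest and lowest of each complex and fixed isoforms and core subunits, and the members and lists were chosen with earlier results of these data known. Isoform comparisons, Atp5i and the members listed for non-overlap or dye were chosen after their values were seen.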

Additional observations from a re-analysis of the deposited data

Results flagged for a closer look

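On 6 named probes the array of 8 h replicate 1 lay far from the other 3: Atp5d at 0.87, Cox6b2 at -1.83, Cox7a2 at 1.07, Sdhb at 0.67, Sdhc at 0.60 and Uqcrfs1 at 0.74. On 8 h replicate 2 Cox6a2 lay far above the others at 0.41. On 24 h replicate 3 Cox8a at 0.70 and Cox8b at 0.024 both lay above the other arrays. These 9 were found among 81 groups of 4 arrays tried, where chance marks about 1 in 20.

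Between the times, Cox6a1 rose by 0.64 and the downstream Uqcr11 probe fell by 0.46, each past the threshold of the test of the difference (limma's adjusted p = 0.0400 and 0.0456). With 1 array left out in turn these calls were kept in 3 and 1 of 8 fits, with limma's adjusted p up to 0.191 and 0.169. One Cox7a2 probe lay above 0 on all arrays of 8 h and below 0 on all of 24 h, a difference of -0.53 that missed the threshold (limma's adjusted p = 0.199).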

How the results depend on the processing

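Of 2450 values of named probes under other settings, 140 changed sign, 37 of them with median centring and 39 with 1 dye orientation. Of the 133 that belong to calls 2 did: with median centring Atp5hl1 stood at 0.0045 and Uqcr11 at 0.036 at 24 h. In brackets below are the percent of members and of all probes called in the same fit. The 4 members called at 24 h (3.85%, 6.91%) became 0 with median centring (0%, 3.62%) and 0 with processed signals (0%, 4.77%). With a normexp offset of 10 they became 2 (1.92%, 7.57%), and with only the 4 arrays of 24 h 11 (11%, 14.1%). Only the Cy5 arrays gave 31 (30.7%, 14.6%), only the Cy3 arrays 0 (0%, 0.39%) and array weights 13 (12.5%, 13.4%). With an array left out the count ran from 1 to 10. It was 10 without 8 h replicate 1 (9.71%, 10.9%) and 1 without 24 h replicate 1 (0.99%, 1.72%). Without 24 h replicate 2 (1.94%, 3.2%) or 4 (1.98%, 3.46%) it was 2. At 8 h the count of 0 (0%, 0.0249%) became 1 with only the Cy5 arrays (0.99%, 0.631%). With an array left out it ran from 0 to 20, with 20 without 8 h replicate 2 (19.8%, 10.7%). Between the times the count of 2 (1.92%, 1.26%) became 0 with median centring (0%, 0%) or processed signals (0%, 0.688%). Offset 10 (0%, 1.94%) and only the Cy3 arrays (0%, 0.937%) also gave 0. The count was 1 without a dye coefficient (0.962%, 0.862%) or with the brightest probe per gene (1.16%, 1.31%). Only the Cy5 arrays gave 7 (6.93%, 4.47%). With an array left out the count ran from 0 to 11, with 11 without 8 h replicate 2 (10.9%, 5.11%). For dye the count of 0 (0%, 0.0994%) became 78 with median centring (75%, 63.7%). That setting thus leaves a dye difference on most probes. The dye count was 2 with no filter (1.77%, 0.0626%) and 5 with array weights (4.81%, 0.514%). With an array left out it ran from 0 to 21, with 21 without 8 h replicate 2 (20.8%, 5.6%). The members' median became 0.27 at 24 h and 0.51 at 8 h with median centring, and 0.24 at 8 h with only the Cy3 arrays. Same-numbered arrays of the times correlated at -0.257, 0.174, -0.166 and -0.0698. Each such pair had opposite dye orientations, so these correlations cannot tell whether the numbers pair the arrays. A fit with the replicate number as a block called 3 members at 24 h (3%, 7.64%) and 1 between the times (1%, 2.83%). Fits of 1 time or 1 orientation, or without the dye coefficient, give no dye value, and those of 1 time none between times. Taking members by current symbol, chosen after seeing the data, left 4 called at 24 h (3.48%, 6.91%). In the isoform pairs, Cox6a1 minus Cox6a2 ran from 0.625 to 0.774 and Cox8a minus Cox8b from 0.543 to 0.690 at 24 h over all settings tried, and Cox4i1 minus Cox4i2 from -0.643 to -0.384. The causes of these shifts were not tested.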
